A study of Mus musculus with 4 samples.

Results

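The genes described here are Pparg, its partner Rxra, its coactivator Ppargc1b and 6 lipid-handling target genes of PPARγ (Cd36, Fabp4, Fabp5, Lpl, Plin2 and Angptl4), named by symbol for their roles in lipid uptake and storage. The 9 were chosen with earlier results of these data known. All 9 were found among 23259 symbols with a value, and all 9 lay among the 10115 genes tested. RNA was sequenced from bone marrow-derived macrophages of C57BL/6 mice aged 7 weeks kept for 24 h with IL-4, the cytokine of alternative macrophage activation. Of the 4 libraries, 2 carry the genotype label wild type and 2 the label Sema6D-/-, a homozygous loss of Sema6D, a transmembrane semaphorin. Libraries of both labels had received IL-4, so the comparison concerns genotype under IL-4 and holds no unstimulated macrophages. The series title links Sema6D reverse signalling to lipid metabolism, mTOR and PPARγ, and the question here is whether the PPARγ genes differed between the labels. The titles of the wild type samples start with the letter K and those of the Sema6D-/- samples with W, and directions are given here by genotype label. An exchange of the labels would reverse every sign.

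PPARγ is a nuclear receptor that is activated by fatty acids and their oxidised products. It binds DNA as a heterodimer with a retinoid X receptor, at direct repeats of a short site spaced by a single base, and recruits coactivators such as PGC-1β, the product of Ppargc1b. In macrophages IL-4 raises Pparg through STAT6, and the receptor drives genes that bring fatty acids into the cell, carry them through the cytosol and store them in droplets.

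RefSeq promoter windows of GRCm38.p6, each reaching from 250 bases before a transcription start to 50 bases after it, were found for 4 of the 9 genes (Pparg, Rxra, Cd36 and Plin2), with 7 windows in all. The 5 windows that held an exact AGGTCA site on either strand are shown, because the receptor pair is known to bind paired copies of it. No relation between these sites and expression was tested. Capitals mark each exact AGGTCA, or its reverse complement TGACCT, and each match to a direct repeat (AGGTCA, any base, AGGTCA) with at most 2 mismatches among its 12 fixed letters. The sequences run 5′ to 3′ on the strand of the gene.
Pparg, upstream start, chr6:115360894-115361193, plus strand: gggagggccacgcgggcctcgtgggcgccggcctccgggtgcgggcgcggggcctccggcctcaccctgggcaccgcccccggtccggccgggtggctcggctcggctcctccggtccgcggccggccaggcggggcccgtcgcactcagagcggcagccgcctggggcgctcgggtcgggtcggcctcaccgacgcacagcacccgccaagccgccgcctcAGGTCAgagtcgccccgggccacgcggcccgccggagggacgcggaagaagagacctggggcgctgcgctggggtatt
Pparg, next start, chr6:115362099-115362398, plus strand: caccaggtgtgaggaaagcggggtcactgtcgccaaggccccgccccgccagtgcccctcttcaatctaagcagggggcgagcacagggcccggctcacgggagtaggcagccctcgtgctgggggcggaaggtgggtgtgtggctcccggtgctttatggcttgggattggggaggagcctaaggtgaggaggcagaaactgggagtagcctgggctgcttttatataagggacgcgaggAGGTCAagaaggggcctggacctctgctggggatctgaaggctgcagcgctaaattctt
Rxra, downstream start, chr2:27709042-27709341, plus strand: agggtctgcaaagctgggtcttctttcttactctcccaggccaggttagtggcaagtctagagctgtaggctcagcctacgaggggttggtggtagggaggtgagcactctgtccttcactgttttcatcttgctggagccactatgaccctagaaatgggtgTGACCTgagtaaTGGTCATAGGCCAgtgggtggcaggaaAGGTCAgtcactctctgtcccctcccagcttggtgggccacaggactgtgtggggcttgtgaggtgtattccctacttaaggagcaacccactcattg
Cd36, chr5:17835847-17836146, minus strand: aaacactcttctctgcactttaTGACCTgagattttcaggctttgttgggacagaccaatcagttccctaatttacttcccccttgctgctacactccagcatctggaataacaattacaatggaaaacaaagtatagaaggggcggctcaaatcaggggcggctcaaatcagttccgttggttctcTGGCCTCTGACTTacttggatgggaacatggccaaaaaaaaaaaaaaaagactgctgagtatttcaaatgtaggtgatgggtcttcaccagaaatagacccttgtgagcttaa
Plin2, chr4:86670010-86670309, minus strand: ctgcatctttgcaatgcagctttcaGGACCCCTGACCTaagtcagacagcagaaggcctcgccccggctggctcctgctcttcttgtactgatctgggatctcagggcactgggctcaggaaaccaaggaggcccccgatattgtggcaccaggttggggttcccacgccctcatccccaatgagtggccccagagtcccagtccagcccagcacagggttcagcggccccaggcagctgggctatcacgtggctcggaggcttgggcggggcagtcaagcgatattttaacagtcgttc

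The site AGGTCA, on either strand, was present in 16.3% of 32851 promoter windows of the same length, and in 5 of the 7 windows of these genes. A direct repeat with at most 2 mismatches was present in 3.86% of all windows. It was found in the windows of Plin2 (AGGTCAGGGGTCC), Cd36 (AAGTCAGAGGCCA) and the downstream start of Rxra (TGGTCATAGGCCA), where the repeats of Plin2 and Cd36 lie on the strand opposite to the gene. The AGGTCA site of Plin2 forms part of its repeat. No Pparg window had a match with fewer than 4 mismatches. The bases just after the Cd36 start were not found in a GENCODE transcript of Cd36, so this start rests on RefSeq alone. These matches are letters in a window and no measure of binding.

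Expression is given in FPKM, a fragment count scaled by both the length of the transcript and the size of the library, with SD over n = 2 libraries per label. FPKM are per length, so levels can be set side by side between genes only as far as the transcript length used is right. Coding transcripts of a gene can differ in length, as for Rxra, at 628 to 4905 bases in GENCODE M21. Lpl was the most abundant of the 9 at a mean of 3095 FPKM over the 4 libraries and ranked between 16 and 20 among all symbols in each library. Cd36 followed at 2255 FPKM and Plin2 at 618. Fabp5 had 150 FPKM, Fabp4 104 and Pparg 99.0, while Rxra had 15.9, Angptl4 6.48 and Ppargc1b 2.41. Neighbours in this order did not overlap over the 4 libraries, except Fabp5 with Fabp4 and Fabp4 with Pparg. Fabp5 exceeded Fabp4 in all 4 libraries, whereas Fabp4 exceeded Pparg in 2 of 4.

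Of the 9 genes, 5 rose in the libraries labelled Sema6D-/- (Pparg, Rxra, Cd36, Fabp4 and Plin2) and 1 fell (Ppargc1b), by limma with Benjamini-Hochberg adjustment over all tested genes at a threshold of 0.05. Among all tested genes 4.8% were higher and 4.91% lower by the same rule, 9.72% in all. The other 3 (Fabp5, Lpl and Angptl4) had higher means and did not pass. The median difference of the 9 was 0.42 in log2(FPKM + 1), against 0.003 for all tested genes. In none of the 9 did the libraries of the labels overlap, with 8 higher and 1 lower under Sema6D-/-. Such a gap occurred in 56.2% of all tested genes (28.8% higher, 27.4% lower). The calls rest on few libraries: without Sema6D-/- replicate 1, 0 of the 9 passed, and without Sema6D-/- replicate 2 Fabp4 alone did. In a fit without the filter on low values Fabp4 alone passed, and with eBayes without trend Cd36, Fabp4 and Ppargc1b did. In the same libraries 6 of 9 tested neutrophil markers were called higher, and Csf3r was called lower. The summed level of the 11 found, mostly S100a9 and S100a8, was 227 to 240 FPKM under wild type against 636 to 776 under Sema6D-/-. None of the 11 was at 0 in all libraries. The part of these markers in the differences of the 9 genes was not tested.

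**Figure D1:**
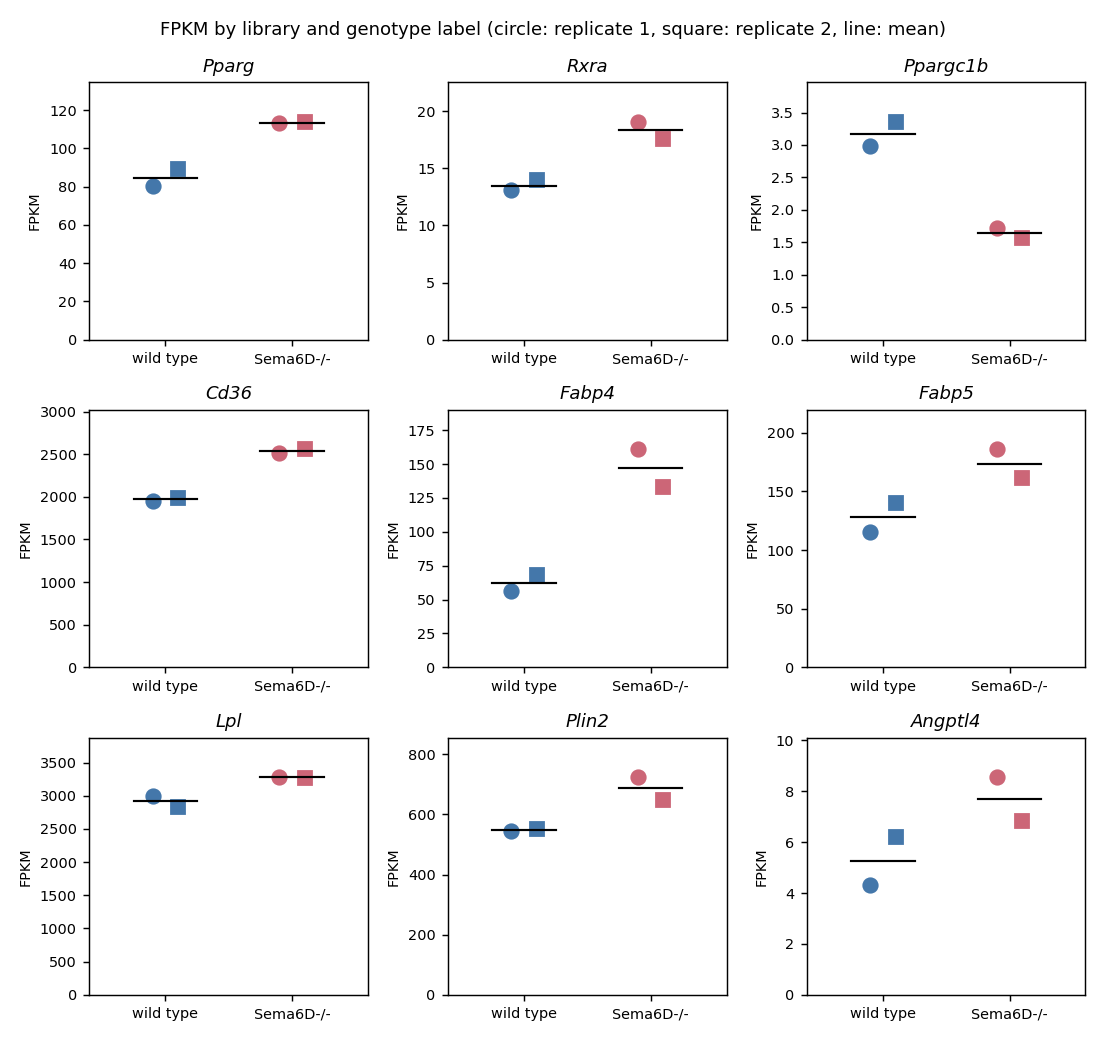
FPKM of each of the 9 genes (vertical axis, from 0) in the 2 libraries of each genotype label; points are libraries and lines are means. The points of the labels do not overlap in any panel, Ppargc1b is the 1 gene lower under Sema6D-/-, and the gap is narrowest for Lpl and Angptl4.

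The receptor gene Pparg was at 80.1 and 89.3 FPKM in the libraries labelled wild type and at 113 and 114 in those labelled Sema6D-/-. Both Sema6D-/- libraries lay above both wild type libraries, and they were closer to each other than the wild type pair. The mean rose from 84.7 ± 6.5 to 113 ± 0.27 FPKM, a difference of 0.42 ± 0.06 (SE) in log2(FPKM + 1) with limma adjusted p = 0.0184. Pparg lost its call without either Sema6D-/- library (highest adjusted p = 0.139) and kept it without either wild type library.

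Rxra encodes RXRα, the retinoid X receptor with which PPARγ pairs on DNA. It was at 13.1 and 14.0 FPKM in wild type libraries and at 19.1 and 17.6 under Sema6D-/-. The labels were separated by more than the spread within either. The difference was 0.42 ± 0.07 (SE) in log2(FPKM + 1) (limma adjusted p = 0.0277), and the call was lost when any 1 library was left out (adjusted p from 0.0623 to 0.189). The ratio of Pparg to Rxra in FPKM was 6.13 and 6.40 in the wild type libraries and 5.93 and 6.44 in the others, and it overlapped between the labels. Rxra lies on chromosome 2, 96.3 Mb from Sema6d, the targeted gene.

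Ppargc1b was the gene that went the other way. It was at 2.98 and 3.36 FPKM in the libraries labelled wild type and at 1.72 and 1.57 in those labelled Sema6D-/-. Both Sema6D-/- libraries were low, at 0.519 times the wild type mean (-0.66 ± 0.12 (SE) in log2(FPKM + 1), limma adjusted p = 0.0305). The scale understates changes at such a level. By a rough estimate of depth these values rest on between 47 and 120 fragments per library. The call was lost when any 1 library was left out (adjusted p from 0.0681 to 0.137).

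Cd36 encodes the scavenger receptor and fatty acid translocase of the cell surface. It was at 1950 and 1992 FPKM in wild type libraries and at 2520 and 2559 under Sema6D-/-. Replicates of a label differed 1.02-fold, while the nearest libraries of the labels differed 1.26-fold. The mean was 28.8% higher (0.37 ± 0.05 (SE) in log2(FPKM + 1), limma adjusted p = 0.0128). The call was lost without either Sema6D-/- library (highest adjusted p = 0.126).

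Fabp4 encodes the fatty acid-binding protein aP2 of adipocytes and macrophages, which carries fatty acids in the cytosol. It was at 56.0 and 67.9 FPKM in the libraries labelled wild type and at 161 and 133 in those labelled Sema6D-/-. The lowest Sema6D-/- library stood 1.95-fold above the highest wild type library. The mean rose 2.37-fold (1.23 ± 0.13 (SE) in log2(FPKM + 1), limma adjusted p = 0.00671), a difference above that of 99.2% of tested genes. Without Sema6D-/- replicate 1 the adjusted p was 0.0593, and the call held without each of the other 3 libraries.

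Fabp5, which encodes a second cytosolic fatty acid carrier, lies 188 kb from Fabp4 on chromosome 3. It was at 115 and 140 FPKM in wild type libraries and at 186 and 161 under Sema6D-/-. The labels did not overlap, but the replicates spread more than those of Cd36, and the difference of 0.44 (95% interval 0.16 to 0.73, unadjusted) did not pass (limma adjusted p = 0.0759). Without wild type replicate 2 it passed (adjusted p = 0.0440). The ratio of Fabp4 to Fabp5 in FPKM was 0.487 and 0.485 in the wild type libraries and 0.868 and 0.825 in the Sema6D-/- libraries. The ratio thus differed between the labels by more than between replicates; this difference was not tested. Fabp5 shares 21.1% of its 50-base words with transcripts of 5 other genes, against 0% for Fabp4, so its level is uncertain where reads map to several places.

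Lpl encodes lipoprotein lipase, the secreted enzyme that frees fatty acids from triglyceride-rich lipoproteins. It was at 3002 and 2830 FPKM in the libraries labelled wild type and at 3285 and 3264 in those labelled Sema6D-/-. The Sema6D-/- libraries were both higher, by a mean of 12.3%, the smallest relative difference of the 9. The difference of 0.17 (95% interval 0.03 to 0.31, unadjusted) did not pass (limma adjusted p = 0.137).

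Plin2 encodes perilipin 2, the protein that coats lipid droplets in macrophages. It was at 545 and 552 FPKM in wild type libraries and at 725 and 649 under Sema6D-/-. The wild type libraries were nearly level and both Sema6D-/- libraries higher, replicate 1 the more so. The mean was 25.2% higher (0.32 ± 0.06 (SE) in log2(FPKM + 1), limma adjusted p = 0.0381). The call was lost when any 1 library was left out (adjusted p from 0.0692 to 0.173).

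Angptl4 encodes a secreted inhibitor of lipoprotein lipase and a classical PPAR target. It was at 4.33 and 6.21 FPKM in the libraries labelled wild type and at 8.57 and 6.82 in those labelled Sema6D-/-. The libraries did not overlap, yet the wild type pair differed 1.43-fold while the gap between the labels was 1.10-fold. The difference of 0.48 (95% interval 0.04 to 0.92, unadjusted) did not pass (limma adjusted p = 0.171). These values rest on about 130 to 240 fragments per library. The ratio of Lpl to Angptl4 ran from 456 to 693 under wild type and from 384 to 478 under Sema6D-/-, with overlap.

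**Figure D2:**
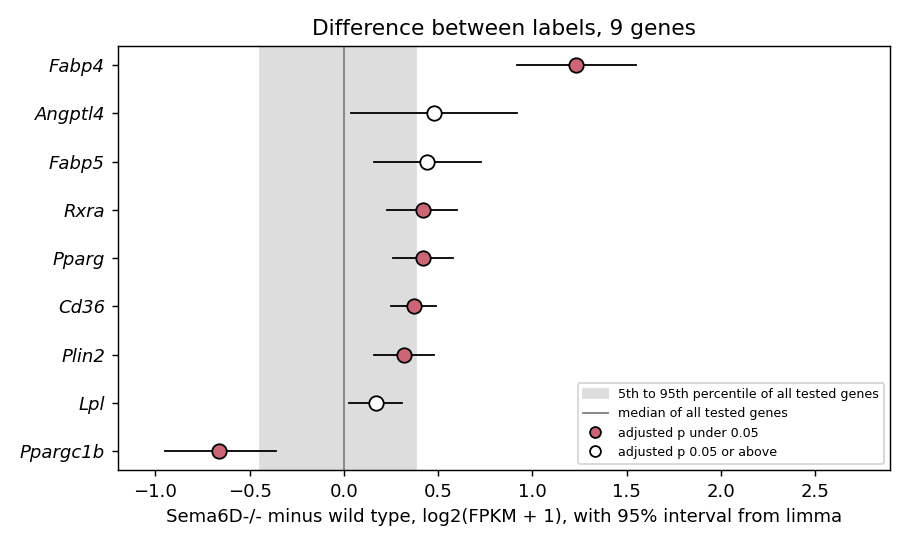
Difference in log2(FPKM + 1), Sema6D-/- minus wild type (horizontal axis), for the 9 genes with the 95% interval from limma; filled points have an adjusted p under 0.05, the band spans the 5th to 95th percentile of tested genes (-0.44 to 0.38). Of the 9 genes 6 lie outside the band: Ppargc1b at -0.66 on the lower side, and Pparg and Rxra at 0.42, Fabp5 at 0.44, Angptl4 at 0.48 and Fabp4 at 1.23 on the upper side.

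The tested genes with the profile most like Pparg, by Euclidean distance of log2(FPKM + 1) centred over the 4 libraries, were Dad1 (distance 0.026), Blmh (0.029) and Stt3b (0.029). Dad1 was at 79.4, 88.1, 110 and 111 FPKM in the same order of libraries as Pparg. Within a distance of 0.1 there were 53 genes, and Rxra at 0.093 ranked 44 of 10114. With only 4 libraries this likeness is a description. Cd36 ranked 59, while Fabp4, with the larger difference, ranked 9379.

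Over 5 lists of other genes of the pathway, 9 of 75 tested genes passed (4 higher and 5 lower), which is 12% against 9.72% of all tested genes. Among 20 receptor partners and coregulators, 17 were tested and 0 passed by limma. The list median was -0.06, against 0.003 for all tested genes. The histone acetyltransferase gene Ep300 was at 20.9 and 21.0 FPKM under wild type and at 18.4 and 18.3 under Sema6D-/- (limma adjusted p = 0.110). The corepressor subunit gene Tbl1xr1 was at 13.7 and 12.9 against 11.0 and 11.4 (limma adjusted p = 0.111). Libraries did not overlap for 10 of the 17, all 10 of them lower under Sema6D-/-. Among all tested genes 56.2% did not overlap in either direction, and 27.4% did not overlap and were lower. Ppara, Rxrg and Ppargc1a were listed at 0 in all 4 libraries.

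Of 10 genes of the IL-4 signal and of factors upstream of Pparg, all tested, 1 was lower and the others did not pass (list median -0.01). Il2rg, the common cytokine receptor chain that serves the IL-4 receptor, fell from 136 ± 7.6 to 88.6 ± 5.0 FPKM (limma adjusted p = 0.00722), and lost its call without Sema6D-/- replicate 1. Stat6, the transcription factor that IL-4 activates, differed by 0.01 ± 0.04 (SE) in log2(FPKM + 1) (limma adjusted p = 0.906; named after its values were seen).

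Of 23 genes of fatty acid uptake, binding and activation, 15 were tested, 1 was higher and 1 lower (list median -0.09). Lipa, the lysosomal acid lipase, rose from 1347 ± 24 to 1625 ± 43 FPKM (limma adjusted p = 0.0297). Acsl4, an acyl-CoA synthetase that prefers arachidonic acid, fell from 33.5 ± 0.45 to 28.1 ± 0.065 FPKM (limma adjusted p = 0.0410). Of 25 genes of droplet storage and lipolysis, 16 were tested, 2 were higher and 0 lower (list median 0.03). Pnpla2, the triglyceride lipase of droplets, rose from 43.6 ± 0.035 to 59.2 ± 2.8 FPKM (limma adjusted p = 0.0113). Nceh1, a cholesteryl ester hydrolase, rose from 101 ± 4.3 to 121 ± 1.5 FPKM (limma adjusted p = 0.0361). The calls on both lists numbered 0 without Sema6D-/- replicate 1 and 0 without Sema6D-/- replicate 2.

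Of 29 other textbook PPAR target genes, 17 were tested, 1 was higher and 3 lower (list median 0.08), where 4.8% and 4.91% of all tested genes were. Cyp27a1, the sterol 27-hydroxylase, rose from 15.2 ± 0.92 to 21.5 ± 2.2 FPKM (limma adjusted p = 0.0353). The cholesterol exporter gene Abca1 fell from 20.5 ± 0.89 to 13.4 ± 0.70 FPKM (limma adjusted p = 0.0106). Gyk, glycerol kinase, fell from 18.3 ± 0.70 to 13.1 ± 0.70 (limma adjusted p = 0.0200), and Ucp2, a mitochondrial carrier, from 266 ± 20 to 210 ± 1.1 (limma adjusted p = 0.0310). These calls likewise numbered 0 without either Sema6D-/- library.

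**Figure D3:**
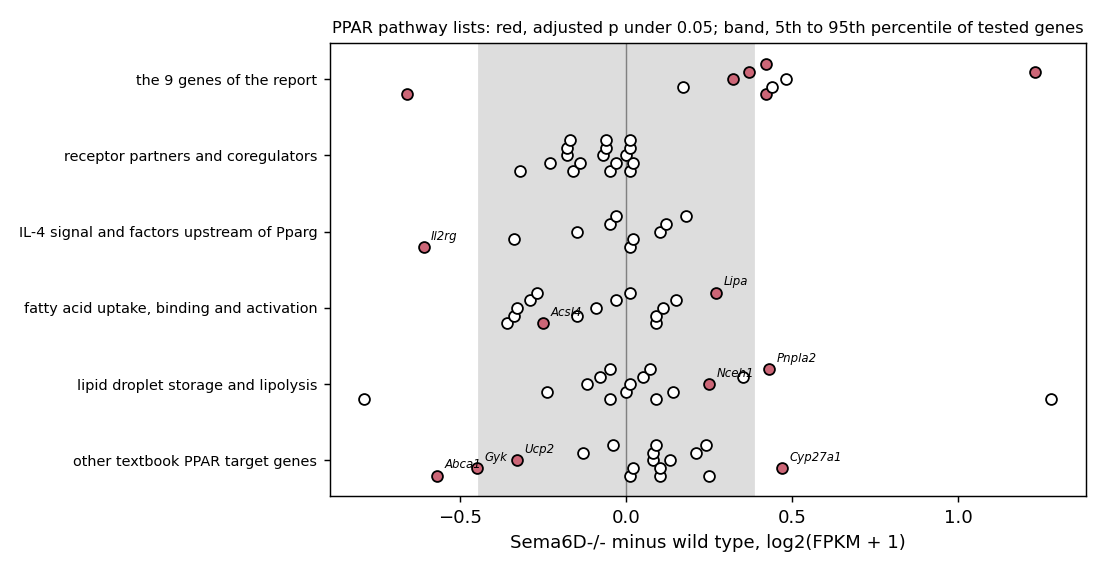
Difference in log2(FPKM + 1), Sema6D-/- minus wild type (horizontal axis), for each tested gene of the 9 and of the 5 pathway lists (rows); red points have an adjusted p under 0.05 and the band spans the 5th to 95th percentile of tested genes. Of the 9 genes 8 lie right of 0, while the coregulators lie mostly left of it with 0 red points.

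**Figure D4:**
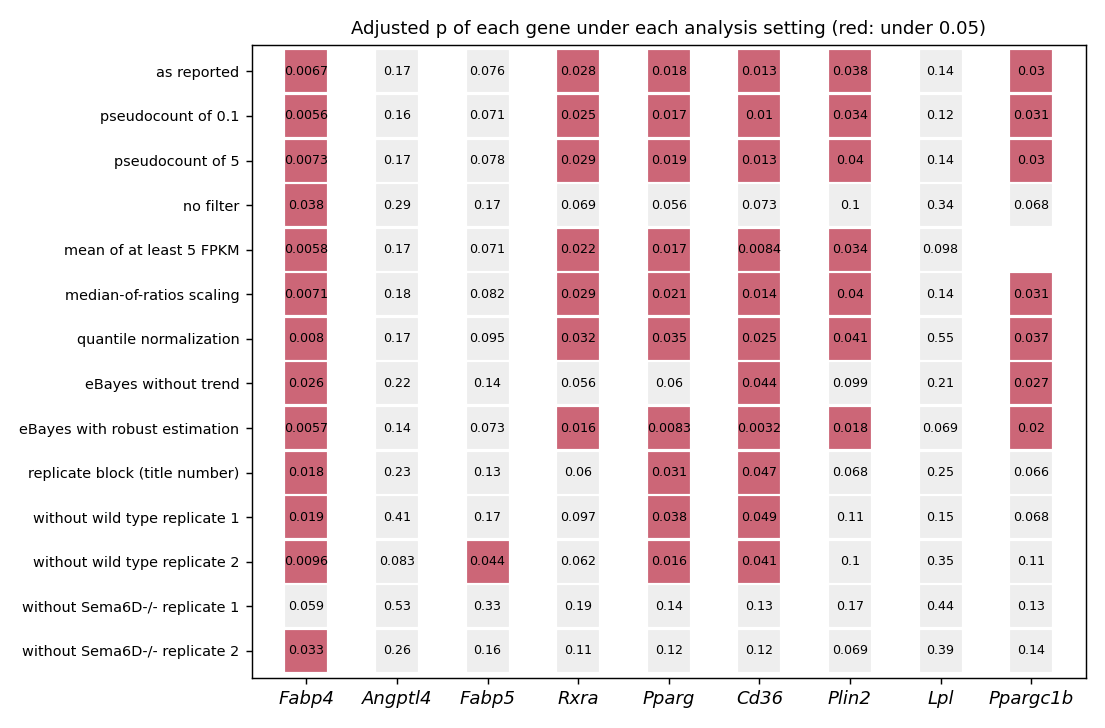
Limma adjusted p of each of the 9 genes (columns) under each analysis setting (rows); red squares are under 0.05, and Ppargc1b has no value with a mean of at least 5 FPKM. Without Sema6D-/- replicate 1 there are 0 red squares, and Fabp4 is red in each other row.

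The series as a whole sets limits on these values. Estimated depth was about 8600000 to 9600000 fragments per library. Sema6d was at 0.166 and 0.389 FPKM under wild type and at 0.106 and 0.315 under Sema6D-/- (limma without filter, adjusted p = 0.788), so the values do not separate the labels and do not check the genotype. Whether the 2 libraries of a genotype are from different animals is not said in the labels, and p-values therefore reflect the spread of these libraries, which may be technical. An exact permutation test of a single gene with 2 against 2 libraries cannot give a two-sided p under 0.333. In bulk RNA a change in the share of cells of a type and a change of RNA per cell cannot be told apart.

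Markers of several cell types, macrophages among them, moved with the labels. For each list, the share of all tested genes called was 4.8% higher and 4.91% lower. All 10 macrophage identity markers were tested, with Emr1 (the F4/80 gene) higher and 4 lower (Itgam, Lyz2, Cd14 and Aif1). The summed level of the 10 was 5737 to 6026 FPKM under wild type and 5394 to 5423 under Sema6D-/-. Lyz2, Cd68 and Csf1r led the list with means of 2841, 1397 and 534 FPKM. Of 12 neutrophil markers 11 were found and 9 tested, of which 6 were higher, led by S100a9 and S100a8, and Csf3r was lower. Of 4 tested mast cell, basophil and eosinophil markers, 3 were higher, Prg2, Prss34 and Mcpt8, and Siglec5 (an older symbol of Siglecf) was lower. The sum was 13.6 to 14.6 against 15.1 to 25.2 FPKM. Siglec5, at 10.9 and 12.5 FPKM against 5.85 and 5.26, made up most of the wild type sum. Prg2 was at 0.958 and 0.936 FPKM under wild type against 8.03 and 3.87. Dendritic cell markers (Itgax lower, 1 of 3 tested) summed to 444 to 453 against 344 to 366 FPKM, mostly Itgax. Batf3, with means of 41.8 FPKM under wild type and 41.7 under Sema6D-/-, and Ccr7 were also tested and did not pass. Xcr1 was at 0.355 and 0.417 FPKM under wild type against 0.0777 and 0.075 (limma without filter, adjusted p = 0.0489). Zbtb46 was at 0.696 and 0.913 against 0.251 and 0.367 and did not pass that fit. Flt3, Cd209a and Siglech reached at most 0.1 FPKM in any library. Osteoclast markers (Dcstamp and Mmp9 lower, 2 of 6 tested) summed to 326 to 333 against 257 to 289 FPKM. Ocstamp, Ctsk, Acp5 and Itgb3 had means of 118, 42.6, 39.0 and 6.07 FPKM over the 4 libraries and did not pass. Calcr was listed at 0 in all libraries and Oscar reached at most 0.136 FPKM. The part of these markers in the differences of the 9 genes was not tested.

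Adipocytes and endothelial cells also express Fabp4, Cd36 and Pparg. The adipocyte genes Lep, Retn, Cfd and Cidec were listed at 0 in all 4 libraries, Plin1 reached at most 0.0642 FPKM, and Adipoq was listed at 0 in both wild type libraries and at 0.430 and 0.311 in the others. Adipoq lay under the filter on low values, and in the fit without it the difference passed (limma without filter, adjusted p = 0.0482). Lipe, which macrophages express too, was the 1 adipocyte marker tested with the filter and did not pass. It made up nearly all of the adipocyte sum, which reached at most 11.1 FPKM in any library. Of 8 endothelial markers, Vwf, the 1 tested, was at 14.8 ± 0.34 and 15.0 ± 0.22 FPKM and did not pass. Cdh5, Tek and Emcn were at most 0.133 FPKM in any library, and Cldn5 at most 0.351. Pecam1 was at 0.397 and 0.356 FPKM under wild type and at 0.651 and 0.838 under Sema6D-/-, and Esam at 0.183 and 0.179 against 0.267 and 0.193, both without overlap. Kdr was at 0.940 and 0.844 FPKM under wild type against 0.503 and 0.546. The endothelial sum was 16.2 and 16.9 against 16.5 and 17.2 FPKM. Fibroblast markers summed to 5.93 and 11.5 against 8.32 and 5.48 FPKM, with 0 of 3 tested called. Erythroid and megakaryocyte markers summed to 45.2 to 53.5 against 36.2 to 46.2 FPKM, mostly Pf4, with 0 of 2 called. Itga2b and Ppbp lay under the filter and were higher under Sema6D-/-. Itga2b was at 0.0311 and 0.0913 FPKM against 0.443 and 0.427 (limma without filter, adjusted p = 0.0411). Ppbp was at 0.461 and 0.226 against 1.39 and 0.974 and did not pass that fit. Lymphocyte markers summed to 0.821 to 1.51 FPKM over all libraries, with no member tested.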

How the data were processed

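The authors deposited 1 list of gene symbols with FPKM values per library. Per the submitters' processing notes, TopHat2 2.0.13, Bowtie2 2.2.3, SAMtools 0.1.19 and Cuffnorm 2.2.1 were used with build mm10; Cuffnorm normalizes FPKM between libraries. Per the labels' protocols, libraries were strand-specific (Agilent SureSelect). The sources used here name neither the annotation nor how multiply mapping reads were handled. Of 23284 symbols, 25 without a value were left out.

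Log2(FPKM + 1) was tested with limma 3.58.1 in R 4.3.3 (eBayes with trend, two-sided) on the 10115 genes whose mean reached 1 FPKM, with Benjamini-Hochberg adjustment at 0.05. Intervals on differences are 95% intervals, unadjusted. Depth was estimated from the smallest steps of FPKM on GENCODE M21 transcripts of at least 3 kb; only 34.8% to 53.3% of the values used lay near the step, so it is rough. Promoters came from RefSeq (GRCm38.p6, the assembly mm10 names).

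The 9 genes and all lists were chosen with earlier results of these data known. Named genes were the 9, Sema6d, genes past the threshold on each pathway list (otherwise the 2 with the smallest p), the most abundant markers and those at 0, and the 3 profiles nearest to Pparg; other markers were named after their values were seen. Data were simulated for this comparison over 10115 genes with normal errors of the fitted variances, and 50 genes were changed by each size. The changed genes were drawn from those with a mean of at least 5 FPKM. The test recovered 88% of changes of 0.5 and 98% to 100% of changes of 1 or more, with 18 false calls among 211. This does not cover Ppargc1b, with a mean of 2.41 FPKM, or changes under 0.5, as most of the 9 differences were. Alternatives were other pseudocounts, filters, scalings and variance models, a replicate block and leaving out each library.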

Additional observations from a re-analysis of the deposited data

How the results depend on the processing

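Across 116 alternative values of the 9 differences none changed direction; 87 kept their side of the threshold, 28 lost the call and 1 (Fabp5 without wild type replicate 2) gained it. Only the scalings could have changed a direction. Libraries of the labels overlapped in none of the 9, so no pseudocount or left-out library could reverse a sign. The filters, variance models and block leave the difference itself as it is. A fit to 3 libraries has less power, and a call can be lost there with the difference unchanged. Of the 9, 5 passed as higher and 1 as lower. Without a filter on low values 1 was higher and 0 lower, and 256 and 248 of all genes passed in place of 486 and 497. With eBayes without trend 2 were higher, and 261 and 327 of all genes passed. Ppargc1b is under a mean of 5 FPKM, so 0 were lower with that filter. With a replicate block from the title numbers, 3 were higher and 0 lower, and 300 of all genes were higher. Libraries of 1 number did not deviate together (r = -0.018 over 10115 genes). This cannot tell whether samples of 1 number were prepared as a pair, which the labels do not say. Leaving out each library in turn gave 0 to 4 higher and 0 lower of the 9, and 72 to 276 higher and 87 to 290 lower of all genes. The cause of these changes was not tested. Pseudocounts of 0.1 and 5, both scalings and robust estimation kept all 6 calls. By the longest coding transcripts Ppargc1b and Angptl4 rest on the fewest fragments; by the shortest, Rxra rests on 77 to 100, fewer than Angptl4.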

Other observations

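Some genes of lipid droplets with low levels had larger differences than most of the 9 and did not pass the test; they were chosen after their values were seen. Mgll, the monoglyceride lipase, was at 0.513 and 1.48 FPKM in the libraries labelled wild type and at 4.57 and 2.97 in those labelled Sema6D-/- (limma adjusted p = 0.0530). G0s2, an inhibitor of the droplet lipase encoded by Pnpla2, was listed at 0 and 0.155 FPKM against 2.08 and 1, under the filter on low values. Dgat2, which makes triglycerides, went the other way, at 2.22 and 1.15 against 0.485 and 0.571 FPKM (limma adjusted p = 0.0984). In all 3 genes the libraries of the labels did not overlap, as in 56.2% of all tested genes.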
